A study of Mus musculus with 8 samples.

Results

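The levels of 9 genes from families known from muscle precursor cells are described in 4 mouse mammary tumour cell lines. These were the homeobox genes Lbx1 and Meox1, the paired-box genes Pax3 and Pax7, the sine oculis homeobox genes Six2, Six3 and Six4, and the eyes absent genes Eya1 and Eya2. They are 9 of the 27179 Entrez genes in the count table, found by matching each identifier to its symbol. The set was drawn up because Lbx1, Pax3 and Six3 had been seen only in the 66cl4 and 67NR lines, so the levels in 4T1 and 4T1.2 against 66cl4 and 67NR chose the set and are given below as a description, with no test. The comparisons within each pair of lines, 66cl4 against 67NR and 4T1.2 against 4T1, did not enter the choice and were tested.

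The 4 lines, 4T1.2, 4T1, 66cl4 (spelled 66c14 in the sample labels) and 67NR, are isogenic and were sequenced as untreated cell cultures by RNA-seq, with 2 biological replicates of each. 4T1.2 is a clone of 4T1 with a high capacity to spread to bone, 4T1 also metastasises widely, and 66cl4 and 67NR have a low metastatic potential. The labels name no agent, transgene or deletion, so the name of the line is the only difference they give. Each line stands for 1 cell population passaged on its own. The study compared the transcriptomes of the lines.

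In the embryo, Pax3 marks the muscle precursors that leave the somite and is required for the Met receptor that drives their delamination, while Lbx1 is needed for their migration into the limb. Six-family proteins bind DNA and recruit Eya proteins as co-activators, and together they act upstream of Pax3 and of the myogenic factors Myf5, Myod1 and Myog. Pax7 marks the satellite cells of adult muscle, and Meox1 acts in the somite. Several of these genes serve other tissues: Six2 maintains nephron progenitors, Six3 patterns the forebrain and eye, and Lbx1 and Pax3 are used in the dorsal spinal cord.

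Libraries held between 37159840 and 66269681 counts. Values are raw counts per gene, CPM (the counts scaled to library size by the trimmed mean of M-values) and, where genes are compared with each other, RPKM, in which CPM is divided by the length in kilobases that accompanies the counts. A gene was called changed at an adjusted p under 0.05 in the quasi-likelihood test of edgeR, with p-values adjusted by the Benjamini-Hochberg method over 13923 genes. Of the 9 genes, 7 passed the filter on low counts, while Pax7 and Meox1 did not. In 66cl4/67NR, the libraries of 5 genes lay above all 4T1/4T1.2 libraries, those of Six4 and Eya2 lay below them, and those of Pax7 and Meox1 overlapped. Among all tested genes, 55.5% lay apart in this way, 27.7% above and 27.8% below. The set was chosen on this contrast, so its share is not read against that background. In bulk samples such as these, fewer cells of a type and less RNA per cell cannot be told apart.

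**Figure D1:**
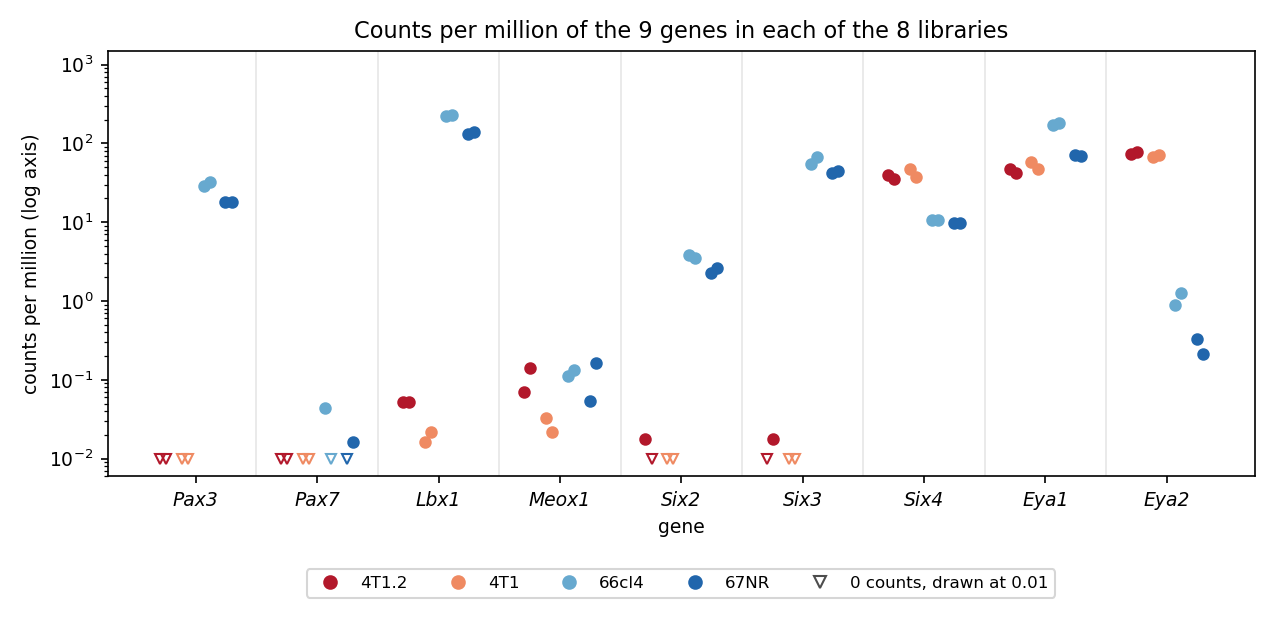
CPM (log axis) of the 9 genes in the 2 libraries of each of 4 lines, 1 point per library, with open triangles at 0.01 for libraries with 0 counts. Pax3, Lbx1, Six2 and Six3 were at or near 0 in the red 4T1.2 and 4T1 libraries, whereas Six4 and Eya2 were highest there.

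In 66cl4 and 67NR, Lbx1 had the highest per-length level of the 9 genes. It had 10233 and 10282 counts in the 66cl4 libraries, 4768 and 8536 in the 67NR libraries, 3 and 3 in 4T1.2 and 1 and 1 in 4T1. The 66cl4 libraries were highest, the 67NR libraries came next, and the levels of 4T1.2 and 4T1 rested on 8 counts in all. In CPM this was 227.8 ± 2.40 (SD, n = 2) in 66cl4 and 134.3 ± 5.85 in 67NR, a difference of 0.76 on the log2 scale (SE 0.08) with an adjusted p of 5.47e-05. Per length, the level of Lbx1 in 66cl4 exceeded that of 98.84% of the tested genes, and in 67NR that of 97.48%. Pooled CPM is the summed counts of a group over its summed scaled library sizes. For Lbx1 it was 4956 times as high in 66cl4/67NR as in 4T1/4T1.2, with a 95% counting interval of 2515 to 11480, which covers counting error only. RPKM for Lbx1 uses the 864 bases on which the reads were counted, whereas the GENCODE annotation of the same build gives it 2484 exon bases.

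Pax3, the regulator upstream of Lbx1 in migrating precursors, had 0 counts in all 4 libraries of 4T1.2 and 4T1. It had 1303 and 1445 counts in 66cl4 and 657 and 1111 in 67NR. Against a floor of 3 counts over the 4T1/4T1.2 libraries, its level in 66cl4/67NR was at least 1765-fold higher. Within the pair that expressed it, CPM was 30.5 ± 2.45 in 66cl4 and 17.97 ± 0.06 in 67NR (SD, n = 2 each), and the log2 difference was 0.76 (SE 0.12, adjusted p = 0.00165, edgeR). On a per-length scale Pax3 was a gene of middling level, above 45.9% of the tested genes in 66cl4 and 36.6% in 67NR.

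Lbx1 and Pax3 kept nearly the same proportion in the lines that expressed both. The ratio of their RPKM values was 31.9 and 35.2 for 66cl4 and 32.5 and 34.4 for 67NR, with means of 33.5 ± 2.34 and 33.4 ± 1.35 (SD, n = 2 each). The ranges of the lines overlapped, and no test was made of this ratio. Pax7, the paralogue of Pax3, had 2 and 0 counts in 66cl4, 0 and 1 in 67NR and 0 in the other libraries, so no difference in Pax7 was detectable at this depth.

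Meox1 was found at a few counts in every library. Its counts were 4 and 8 in 4T1.2, 2 and 1 in 4T1, 5 and 6 for 66cl4 and 2 and 10 for 67NR. The highest CPM, 0.162, and one of the lowest, 0.0546, both came from 67NR, whereas both 4T1 libraries, at 0.0216 and 0.0328, lay below all the others. The ratio of pooled CPM was 3.79 for 4T1.2 over 4T1, with a 95% counting interval of 1.02 to 20.9 that rests on 12 and 3 counts. For 66cl4 over 67NR it was 1.00 (0.4001 to 2.477). These intervals cover counting error only, and Meox1 was too low to be tested.

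Six2 and Six3 lie close together on chromosome 17, with their lower coordinates 49.1 kb apart (GRCm38), and both were found in 66cl4 and 67NR. Six3 had 2467 and 3013 counts in 66cl4, 1522 and 2749 in 67NR, 0 and 1 in 4T1.2 and 0 and 0 in 4T1. Six2 had 172 and 158 counts in 66cl4, 83 and 161 in 67NR, 1 and 0 in 4T1.2 and 0 and 0 in 4T1. For both genes every 66cl4 and 67NR library was above every 4T1.2 and 4T1 library. The ratio of pooled CPM was 11430 for Six3 (95% counting interval 2051 to 451600) and 673 for Six2 (120.3 to 26630). Both intervals rest on a single count in 4T1.2.

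Between 66cl4 and 67NR, Six3 had a CPM of 60.9 ± 9.01 against 43.0 ± 2.15 (SD, n = 2 each), a log2 difference of 0.50 (SE 0.13, adjusted p = 0.0152). Six2 had 3.66 ± 0.19 against 2.44 ± 0.24 and a log2 difference of 0.58 (SE 0.21) at an adjusted p of 0.0493. Both calls were by edgeR and lay near the threshold. Without replicate 2 of 66cl4, the adjusted p of Six3 was 0.112, and without replicate 1 or replicate 2 of 67NR it was 0.111 and 0.0672. For Six2 it was 0.105 by DESeq2, and it passed 0.05 without either 66cl4, either 67NR or either 4T1.2 library, with values from 0.0595 to 0.214. Per length, Six3 stood 9.57 ± 1.91 times above Six2 in 66cl4 and 10.1 ± 0.51 times in 67NR, and these ranges overlapped.

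Six4, which acts early in the muscle lineage, had the opposite pattern. Its counts were 2280 and 1997 in 4T1.2, 2906 and 1748 in 4T1, 480 and 483 for 66cl4 and 355 and 594 for 67NR. The CPM values of 4T1.2 and 4T1 ran from 35.2 to 47.6 and overlapped each other, and those of 66cl4 and 67NR ran from 9.63 to 10.8. Pooled CPM in 4T1/4T1.2 was 3.98 times that in 66cl4/67NR. Neither pair was called for Six4, with a log2 difference of 0.15 (SE 0.13, adjusted p = 0.407) for 66cl4 against 67NR and -0.18 (SE 0.12, adjusted p = 0.372) for 4T1.2 against 4T1 by edgeR.

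Stretches before a RefSeq start of Six2, Six3 and Six4 are shown because the first 2 genes went one way and the last the other. They are promoter windows of GRCm38.p6, cut at the first annotated exon of a coding gene, in lower case with CpG dinucleotides in capitals, and each is written on the strand of its gene. Those of Six3 and Six4 lie at starts within the span of the gene (chr17:85613608-85626191 and chr12:73099609-73114031), and that of Six3 overlaps an exon of the opposite-strand gene Gm28528. RefSeq windows were at hand for 4 of the 9 genes, and that of Pax7 lay wholly within an exon.
Six3, chr17:85620584-85620833, plus strand: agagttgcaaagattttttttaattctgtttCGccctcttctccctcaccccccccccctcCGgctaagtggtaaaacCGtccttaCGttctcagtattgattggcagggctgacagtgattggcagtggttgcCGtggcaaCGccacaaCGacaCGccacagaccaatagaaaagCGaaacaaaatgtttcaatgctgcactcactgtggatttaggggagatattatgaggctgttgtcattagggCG
Six2, chr17:85688275-85688504, minus strand: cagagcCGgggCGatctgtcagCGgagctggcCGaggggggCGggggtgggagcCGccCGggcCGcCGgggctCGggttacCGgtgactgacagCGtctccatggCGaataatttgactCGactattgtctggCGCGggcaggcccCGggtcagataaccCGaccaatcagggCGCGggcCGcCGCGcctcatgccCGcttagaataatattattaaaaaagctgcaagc
Six4, chr12:73113457-73113675, minus strand: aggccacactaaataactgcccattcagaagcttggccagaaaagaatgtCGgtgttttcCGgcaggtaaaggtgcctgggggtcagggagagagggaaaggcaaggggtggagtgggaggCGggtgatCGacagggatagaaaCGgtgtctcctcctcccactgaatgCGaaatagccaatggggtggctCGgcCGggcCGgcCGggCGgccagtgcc

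Six2 carried 24 CpG dinucleotides in its 230 bases, Six3 10 in 250 and Six4 11 in 219. In the full windows of 300 bases the numbers were 37, 14 and 15, and 5.58% of the 32851 RefSeq windows held at least as many as Six2, 36.3% as many as Six3 and 34.6% as many as Six4. Each of the 3 windows held the letters CCAAT on one strand or the other, as did 37.4% of all windows, and none held TATAAA, found in 13.6%. The letters TCAGGTTTC of the MEF3 motif, bound by Six-family proteins, were in none of these 3 windows but occurred in that of a second Six4 start. They were found in 0.43% of all windows, on either strand, and a match in letters is no evidence of binding.

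Of the Six3 exon bases, 5.03% overlap exons of opposite-strand non-coding genes, among them Six3os1, whose lower coordinate is 11.7 kb below that of Six3. Whether the counting used strand was not given in the sources used here, so reads in that overlap cannot be assigned to one gene. Six3os1 itself was listed at 0 in every 4T1.2 and 4T1 library, at 1045 to 1229 counts in 66cl4 and at 593 to 1100 in 67NR, and was higher in 66cl4 than in 67NR by 0.57 on the log2 scale (adjusted p = 0.0112, edgeR). No stretch of 75 bases was shared between transcripts of the 9 genes, and the longest run that Six2 and Six3 transcripts had in common was 60 bases.

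**Figure D2:**
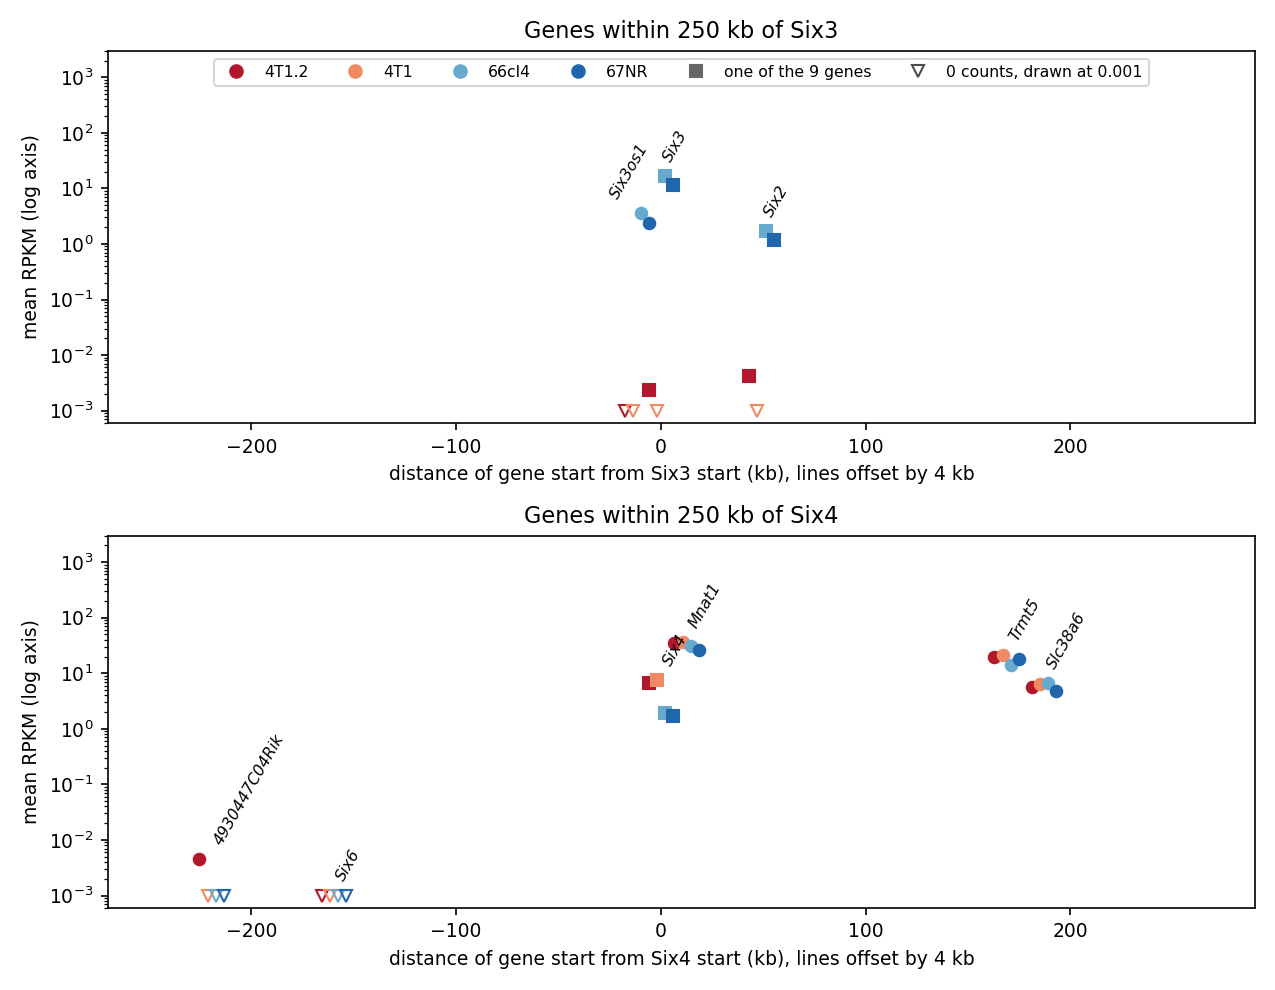
Mean RPKM per line (log axis, n = 2 libraries each) of genes within 250 kb of Six3 or Six4, by distance in kb between their starts (lower coordinates on either strand), with squares for the genes described here and triangles for 0 counts. Six3os1, Six3 and Six2 were all at or near 0 in 4T1.2 and 4T1, whereas Six4 had its higher levels there.

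The Eya co-activators, which are also protein phosphatases, differed between the pairs of lines in opposite directions. Eya2 had 4192 and 4362 counts in 4T1.2 and 4125 and 3272 in 4T1, but 40 and 57 in 66cl4 and 12 and 13 in 67NR. Its pooled CPM was 111.5 times as high in 4T1/4T1.2 as in 66cl4/67NR (95% counting interval 93.3 to 134.4). Eya2 was nevertheless higher in 66cl4 than in 67NR, at 1.08 ± 0.27 against 0.27 ± 0.08 CPM (SD, n = 2 each), with a log2 difference of 2.06 (SE 0.28, adjusted p = 0.000247). Between 4T1.2 and 4T1 the difference was 0.13 (SE 0.12, adjusted p = 0.513, edgeR).

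Eya1 was found in every library. It had 7643 and 8084 counts in 66cl4, 2634 and 4271 in 67NR, 2718 and 2354 in 4T1.2 and 3554 and 2195 in 4T1. The 66cl4 level, 174.6 ± 8.17 CPM, stood apart from the other 3 lines, and 67NR at 70.6 ± 1.87 was closer to 4T1 at 52.8 ± 7.67 and 4T1.2 at 44.7 ± 4.48 (SD, n = 2 each). Against 67NR, 66cl4 was higher by 1.31 on the log2 scale (SE 0.12, adjusted p = 2.03e-05). For 4T1.2 against 4T1 the value was -0.24 (SE 0.12, adjusted p = 0.192, edgeR), and without replicate 2 of 4T1 it was -0.38 with an adjusted p of 0.0344.

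Between 66cl4 and 67NR, 6 of the 7 tested genes were therefore higher in 66cl4, none was lower, and Six4 was not called. Of all genes tested, 44.7% were called in this comparison, made up of 22.3% called higher and 22.4% called lower. The median log2 difference was 0.76 over the 7 genes and 0 over all genes. Lbx1, Pax3, Eya1 and Eya2 kept their calls when any 1 library was left out, with adjusted p-values of at most 0.0212. Between 4T1.2 and 4T1, edgeR called 0 of the 7 genes, with 0 at an unadjusted p under 0.05 and 0 called by DESeq2 or limma-voom, against 19.3% of all genes tested (9.37% higher and 9.93% lower). Of these 7, Lbx1, Pax3, Six2 and Six3 had at most 3 counts in any of the 4 libraries, so a difference in them was not detectable at this depth. Lbx1, with 6 counts in 4T1.2 and 2 in 4T1, gave a ratio of 2.84 with a counting interval of 0.508 to 28.8.

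**Figure D3:**
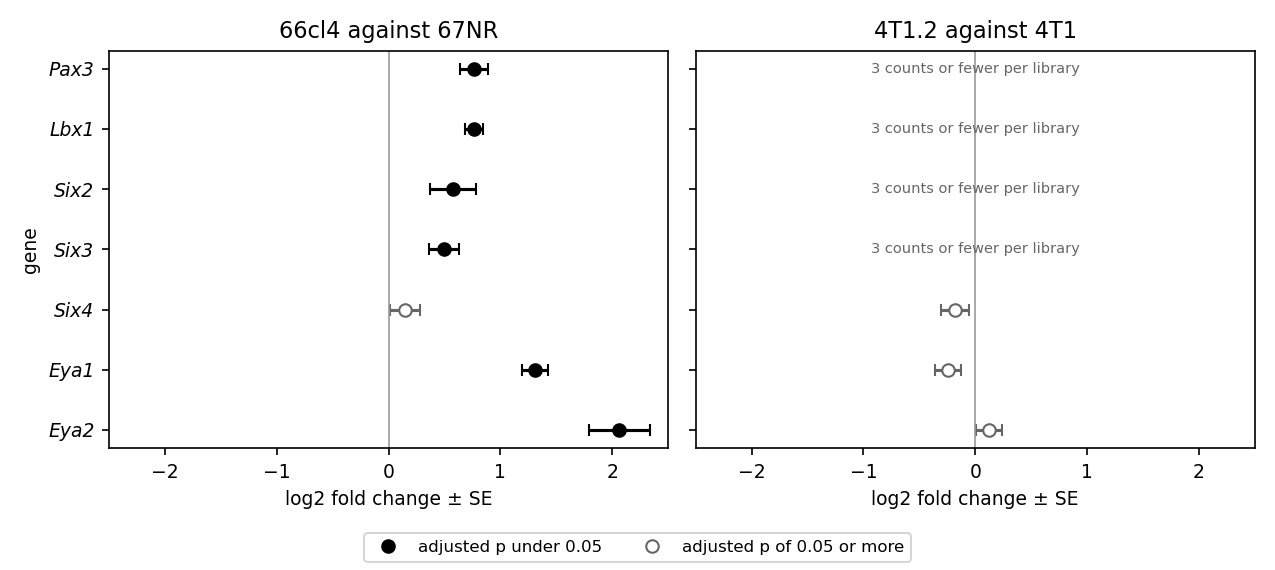
Log2 fold change with its standard error for the 7 tested genes in 66cl4 against 67NR (left) and 4T1.2 against 4T1 (right), filled where the adjusted p was under 0.05. On the left, 6 genes lay above 0 and Six4 at 0.15 was not called, and on the right none of Six4, Eya1 and Eya2 was called.

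Other members of the same families placed these values in context. They form a list of 15 relatives (the Dach genes and other members of the Six-, Eya-, Pax-, Lbx- and Meox-families), of which 4 were tested and 4 had no count in any library. In 4T1/4T1.2 against 66cl4/67NR, where 76.7% of all genes tested were called, 38.1% as higher and 38.6% as lower, the 4 were called as lower. Of these, Pax2 and Dach1 passed the filter on low counts only through 66cl4 and 67NR, which set their direction, so nothing is read from the count. The same holds for other listed genes that were near 0 in one pair of lines, and the counts given for the lists are descriptions.

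Six5 had 614 and 528 counts in 4T1.2, 464 and 321 in 4T1, 1049 and 1208 for 66cl4 and 398 and 733 for 67NR, and was lower in 4T1/4T1.2 by -0.98 (SE 0.09, adjusted p = 6.27e-06, edgeR). Six6 had no count in any library.

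Per length, Six5 stood at 8.79 ± 0.94 RPKM in 66cl4 and 3.99 ± 0.25 in 67NR (SD, n = 2 each), below Six3 at 16.5 ± 2.45 and 11.7 ± 0.58. Six4 had 6.77 ± 0.62 RPKM in 4T1.2 and 7.66 ± 1.25 in 4T1, above Six5 at 3.53 ± 0.37 and 2.55 ± 0.17. These differences between genes were not tested.

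In the Eya family the sums were 54.8 ± 3.12 RPKM in 66cl4, 52.2 ± 0.16 in 4T1.2, 51.7 ± 2.19 in 4T1 and 31.9 ± 1.49 in 67NR. Eya2 held 61.0 ± 1.99% of the sum in 4T1.2 and 56.6 ± 4.16% in 4T1 but 0.83 ± 0.16% in 66cl4 and 0.36 ± 0.09% in 67NR, where Eya1 held 73.3 ± 0.74% and 51.0 ± 1.02%. Eya3, the broadly expressed member, was between 9.42 and 16.2 RPKM in every library and was lower in 4T1/4T1.2 by a log2 difference of -0.53 (SE 0.08, adjusted p = 0.000139, edgeR). Eya4 had no counts.

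The Pax family was almost silent in 4T1.2 and 4T1, with sums of 0.06 RPKM in each. In 66cl4 it summed to 19.8 ± 1.06 RPKM, and in 67NR to 6.76 ± 0.04. Pax2, a regulator of kidney and ear development, was found beside Pax3. It had 1557 and 1635 counts in 66cl4, 225 and 395 in 67NR, 2 and 0 in 4T1.2 and 0 and 1 in 4T1. The 66cl4 libraries exceeded those of 67NR by a log2 difference of 2.496 (SE 0.16, adjusted p = 3.28e-06, edgeR). Pax2 thereby held 59.2 ± 0.70% of the Pax sum in 66cl4, and Pax3 held 68.8 ± 0.21% of it in 67NR.

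**Figure D4:**
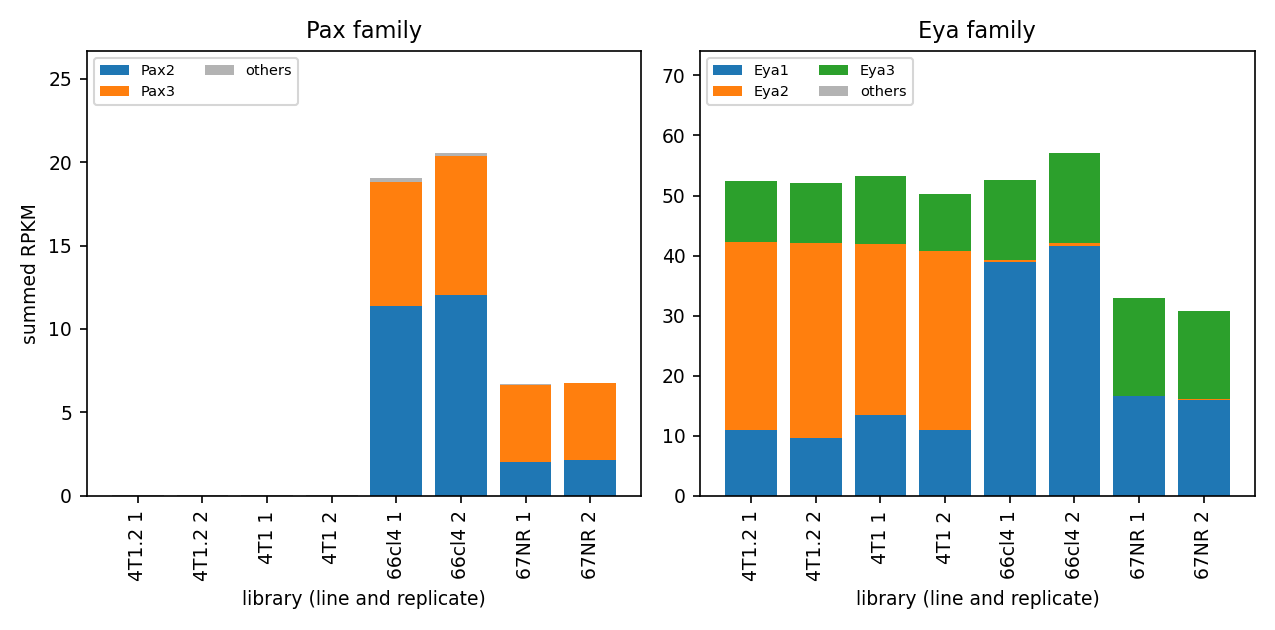
Summed RPKM of the Pax and Eya families in each of the 8 libraries, stacked by gene, with genes that never reached 0.3 RPKM joined as others. Pax genes were near 0 in 4T1.2 and 4T1, and from these lines to 66cl4 and 67NR Eya2 gave way to Eya1 as the largest Eya share.

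Dach1, a partner of the Eya proteins, was found almost solely in 66cl4, with 43 and 29 counts, against 0 and 1 in 67NR and 0 in 4T1.2 and 4T1. Its difference between the pairs therefore rested on 1 line. Lbx2 had at most 7 counts in any library and Meox2 at most 2.

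Among myogenic regulators, the factors that define committed myoblasts were at or near 0, whereas Mef2a and Mef2d were found in every library. Of the 11 genes in that list, Myf5, Msc and Tcf21 had no count in any library, Myod1 had 1 count in a single 66cl4 library, and Myog had 1 in a single 67NR library. Myf6 had 4 and 12 counts in 67NR and 0 in the others. Mean CPM ran from 62.2 to 131.8 over the lines for Mef2a and from 23.3 to 62.6 for Mef2d, and the list summed to between 34.6 and 73.2 RPKM in every library. Of the 11, 4 were tested, and in 4T1/4T1.2 against 66cl4/67NR 0 were higher and 2 were lower: Mef2c and Mef2d.

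Mef2c, a MADS-box factor of muscle, vessel and neural cells, had 5, 6, 1 and 5 counts in the 4T1.2 and 4T1 libraries, 734 and 541 in 66cl4 and 349 and 510 in 67NR, which gave a ratio of 147.2 for 66cl4/67NR over 4T1/4T1.2 (95% counting interval 91.7 to 253.1). Mef2a was among the genes higher in 66cl4 than in 67NR, by 1.08 (SE 0.12, adjusted p = 8.81e-05, edgeR), and was not called between the pairs (adjusted p = 0.0758).

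Genes that act downstream of Pax3 and Lbx1 in migrating precursors did not share one direction. Of 12 listed, 7 were tested, of which 4 had higher and 3 had lower levels in 4T1/4T1.2 by the test. Met, the receptor for hepatocyte growth factor, was found in all lines, above 50.4% to 66.5% of the tested genes per length, with 6182, 5907, 7806 and 5583 counts in 4T1.2 and 4T1, 5255 and 4403 for 66cl4 and 2376 and 3978 for 67NR. It was higher in 4T1/4T1.2 by 0.47 (SE 0.07, adjusted p = 0.000146) and higher in 66cl4 than in 67NR by 0.73 (SE 0.10, adjusted p = 0.000258, edgeR).

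Gab1, the adaptor that couples Met to its downstream kinases, had 29, 26, 52 and 34 counts in 4T1.2 and 4T1 but 2377 and 3974 in 67NR and 1895 and 2115 in 66cl4. The log2 difference of 4T1/4T1.2 against 66cl4/67NR was -6.42 (SE 0.10, adjusted p = 2.01e-11). Spry1, a feedback inhibitor of receptor kinase signalling, was higher in 4T1/4T1.2 by 1.39 (SE 0.06, adjusted p = 9.51e-09) and lower in 66cl4 than in 67NR by -1.32 (SE 0.08, adjusted p = 2.24e-06, edgeR). Cxcr4, the receptor that guides some migrating precursors, and Dmrt2 had no count in any library, and Fgfr4 had at most 3.

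Because Pax3, Lbx1 and Six3 serve neural tissues, factors of the neural crest, neural plate border and placodes were listed as well. Of 11, 5 were tested, with 2 higher and 2 lower in 4T1/4T1.2. Zic2, a zinc finger factor of the neural plate, had 9, 7, 12 and 8 counts in 4T1.2 and 4T1, 998 and 1266 for 66cl4 and 775 and 1423 for 67NR, a ratio of 145.3 (95% counting interval 104.8 to 207.8). Msx2, a homeobox factor of crest and limb, had 0 counts in 4T1.2 and 4T1, 319 and 350 for 66cl4 and 245 and 413 for 67NR, at least 518.6-fold higher. Neither was called between 66cl4 and 67NR, with adjusted p-values by edgeR of 0.306 for Zic2 and 0.469 for Msx2. The crest markers Sox10 and Foxd3 had at most 1 count, and Zic1, Msx1, Tfap2b and Dlx5 had none.

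**Figure D5:**
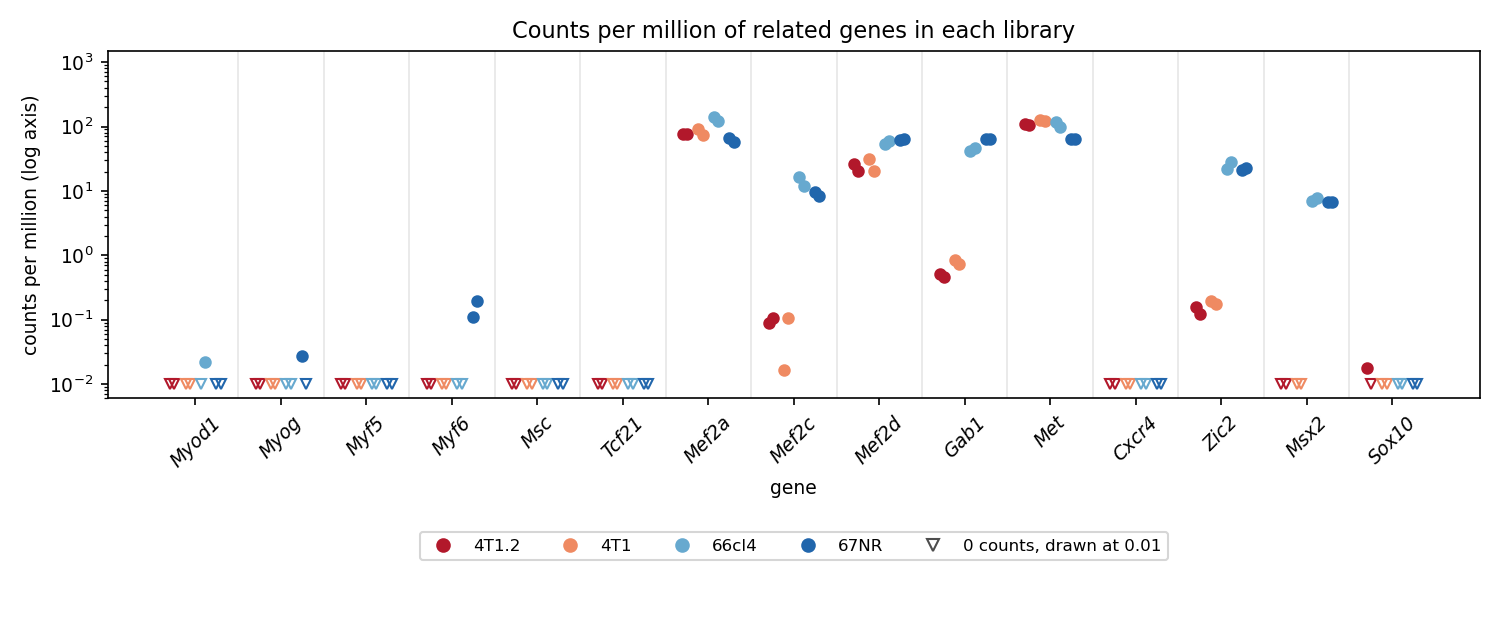
CPM (log axis) of 15 related genes in each library, coloured by line, with open triangles at 0.01 for 0 counts. Myod1, Myog, Myf5, Msc and Tcf21 stayed at or near 0 in all 8 libraries, Mef2c, Gab1, Zic2 and Msx2 were high in 66cl4 and 67NR alone, and Met was found in all 4 lines.

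Genes of contractile muscle did not share one direction either. Of 27 listed, 14 were tested, of which 4T1/4T1.2 had more of 6 and less of 5. Desmin, the muscle intermediate filament, was lower in 4T1/4T1.2 (Des, 6 to 17 counts against 162 to 424, log2 difference -4.74, SE 0.18, adjusted p = 5.84e-09), as was the fast troponin I Tnni2 (-4.62, SE 0.19, adjusted p = 1.07e-08). Troponin C Tnnc1 was higher there (2.39, SE 0.13, adjusted p = 8.26e-08, all by edgeR). The fast troponin T Tnnt3 had at least 193 counts in every 4T1.2 and 4T1 library and at most 6 in those of 66cl4 and 67NR. It passed the filter on low counts only through 4T1.2 and 4T1, so no p-value is given for its difference. The summed RPKM of the list was 190.1 to 293.0 in 4T1, 84.3 to 90.3 in 4T1.2, 67.7 to 69.3 in 66cl4 and 26.9 to 27.0 in 67NR. Tnnc1 made up most of it in all lines but 67NR, and without it the sums were 14.04 to 16.6, 11.3 to 12.85, 13.1 to 13.8 and 15.55 to 15.8 RPKM in the same order, with no such ordering of the lines. Cav3, Myh4 and Cacna1s had no count.

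Over these 5 lists together, 34 of 76 genes were tested. In 66cl4 against 67NR, 11 were higher and 4 lower, and the 44.1% called was close to the 44.7% over all genes. Six5 was higher in 66cl4 by 1.14 (SE 0.13, adjusted p = 9.78e-05, edgeR). The contractile genes were split, with 2 higher, 2 lower and 10 not called. In 4T1.2 against 4T1, 5 were higher and 6 lower, or 32.4% against 19.3% over all genes. That count of 11 was 6 without replicate 1 and 5 without replicate 2 of 4T1.2.

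Markers of other cell types were looked at across the same pairs of lines. Of 11 genes of mammary epithelium, 9 were tested, of which 7 rose and 1 fell in 4T1/4T1.2 relative to 66cl4/67NR. That was 88.9% called, against 76.7% of all genes tested, where 38.1% were called higher. Epcam and Cdh1 passed the filter on low counts only through 4T1.2 and 4T1, so nothing is read from the count. The summed RPKM of the list ran from 1181 to 2159 in the 4T1.2 and 4T1 libraries and from 287.7 to 480.3 in those of 66cl4 and 67NR. Epcam, which defines epithelial cells, had 0, 0, 1 and 0 counts in 66cl4 and 67NR, and Cdh1 had 2 to 7, against at least 629 in every 4T1.2 and 4T1 library. Krt18 differed within the pair as well, at 5219 and 5067 counts in 66cl4 and 30 and 70 in 67NR, and Krt5 and Elf5 had at most 9 and 3 counts in any library. Krt8 stood at 334.8 ± 1.725 RPKM in 66cl4 and 274.5 ± 25.2 in 67NR (SD, n = 2 each), above at least 98.96% of the tested genes. It was higher in 4T1/4T1.2 by 1.13 on the log2 scale (SE 0.10, adjusted p = 3.07e-06, edgeR). Gata3 was not called (adjusted p = 0.0515), and Esr1, the 1 that fell, differed by -1.89 (SE 0.09, adjusted p = 3.85e-08, edgeR).

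Of 6 genes of fibroblasts and mesenchyme, 5 were tested, with 2 higher and 3 lower in 4T1/4T1.2. Pdgfrb, a receptor of mesenchymal cells, had a pooled CPM 113.4 times as high in 66cl4/67NR. The intermediate filament Vim was instead higher in 4T1/4T1.2 by 1.16 (SE 0.14, adjusted p = 2.74e-05, edgeR). The sums of the list were 2604 to 3784 RPKM in 4T1.2 and 4T1 and 1082 to 2020 in 66cl4 and 67NR, nearly all of it Vim. Without Vim the order was the other way, at 17.35 to 25.6 RPKM in 4T1.2 and 4T1 and 43.8 to 89.5 in 66cl4 and 67NR. Among 5 leucocyte genes, Cd3e and Adgre1 were at 0 and Ptprc had at most 2 counts, and the list summed to at most 0.0691 RPKM. Itgam, the only 1 tested, had 46 counts over the 4T1.2 and 4T1 libraries and 11 over those of 66cl4 and 67NR. The part of these marker differences in the values of the 9 genes was not tested.

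Several genes had a pattern across the libraries very like that of Lbx1, Pax3 or Six3. Likeness was the Pearson correlation of log2 CPM (prior count 2) over the 8 libraries, which fall into 2 blocks of 4, so any gene that is near 0 in 4T1/4T1.2 and high in 66cl4/67NR scores close to 1. Between 2.02% and 2.08% of the 13922 other genes exceeded 0.99 with each of the 3. Closest to Lbx1 were Cibar1, Foxd1, Irx5, Cask and Tbx18, at 0.9998 to 0.9992. For Pax3 they were Foxf2, Fam20c, Irx5, Six3os1 and Hoxb7 (0.9999 to 0.9996), and for Six3 Runx3, Tbx18, Irx5, Prrx2 and Cask (0.9998 to 0.9995). Irx5, an Iroquois homeobox gene, was close to all 3, at 88.8 CPM in 66cl4, 49.7 in 67NR and at most 2 counts in any 4T1.2 or 4T1 library. Foxd1 and Foxf2 encode forkhead factors, Tbx18 a T-box factor and Prrx2 a homeobox factor.

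Genes that lie near the 9 were looked at as well. Within 250 kb, between the lower coordinates of the genes, 42 others were taken, of which 27 were tested. In 4T1/4T1.2 against 66cl4/67NR, 10 were higher and 16 lower, so 96.3% were called, against 76.7% of all genes tested. Some passed the filter on low counts only through 1 pair of lines, such as Six3os1 with 0 counts in 4T1.2 and 4T1. The 9 genes were themselves chosen on this contrast, so nothing is read from the share. All 4 tested neighbours of Pax7 were lower in 4T1/4T1.2, as were 3 of 4 around Eya2. Around Meox1, 5 of 6 were higher, and around Six4 2 of 3. The only tested neighbour of Pax3, Sgpp2, was higher, whereas Six3os1, the only one of Six2 and Six3, was lower. Around Lbx1, 8 neighbours were tested, of which 7 were lower in 4T1/4T1.2, against 38.6% of all genes tested. The other 1, Sema4g, was higher by 0.34 (SE 0.10, adjusted p = 0.0127, edgeR). Differences of the 7 ran from -0.42 for Mrpl43 to -2.49 for Pdzd7 on the log2 scale, and a shared cause with Lbx1 was not tested. Pdzd7 differed by -2.49 (SE 0.13, adjusted p = 6.14e-08) and Sfxn3 by -2.13 (SE 0.08, adjusted p = 2.96e-09, edgeR), and they had at least 42 and 2127 counts, in that order, in the 4T1.2 and 4T1 libraries. Btrc, an F-box ubiquitin ligase gene 131.0 kb away, was lower in 4T1/4T1.2 by -0.999 (SE 0.06, adjusted p = 2.16e-07) but had 1622 to 1993 counts in 4T1. Tlx1, the homeobox gene 82.6 kb from Lbx1, had at most 5 counts in 66cl4 and 67NR and 0 in 4T1.2 and 4T1. Beside Eya2, Zmynd8 went the other way, at -1.26 (SE 0.10, adjusted p = 1.80e-06, edgeR), with 4367 to 6989 counts in 67NR and 1803 to 3089 in 4T1.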

How the data were processed

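RNA was sequenced from 8 cultures, 2 biological replicates of each of 4 lines, with TruSeq RNA v2 libraries. The deposited values are the authors' raw read counts per Entrez gene, made with featureCounts on mm10 per the labels, and the strand setting was not given in the sources used here. Depth is limited by totals of 37159840 to 66269681 counts per library. Of 27179 identifiers, 93.0% had an entry in the RefSeq gene table of GRCm38.p6. The filterByExpr function kept 15269, and 13923 were left once ribosomal genes, predicted genes and those lacking an entry were set aside.

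Genes were tested by quasi-likelihood in edgeR 4.0.16 (legacy fit, under R 4.3.3 and with limma 3.58.1 loaded) with TMM scaling and a mean per line over all 8 libraries, checked on simulated data. Standard errors are the log2 fold change divided by the root of F and are approximate. Where a group had no counts, folds are bounds against 3 counts over the group, and counting intervals are exact binomial intervals at the 95% level that cover counting error only. The nominal replicates differed by more than sampling noise. Same-numbered libraries had deviations from their line means that correlated at -0.12 to 0.27, so the numbers were not shown to pair the samples. Neighbours were taken within 250 kb between lower coordinates, at most 6 genes per list were named by p and level, and 5 per likeness. Listed genes at or near 0 counts, Krt8, Gata3 and Esr1 were named after their values were seen. So were the Pax3 neighbour Sgpp2 and the Lbx1 neighbours Pdzd7, Sfxn3, Mrpl43 and Sema4g. The 9 genes and all lists were chosen with earlier results of these data known, and some genes are not reported here. Alternatives were DESeq2's size factors, no filter or a stricter filter on low counts, no removal by annotation, DESeq2 1.42.0, limma-voom, a replicate block, the compared lines alone and leaving out each library.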

Additional observations from a re-analysis of the deposited data

How the results depend on the processing

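For 66cl4 against 67NR, the number of the 9 genes called stayed between 4 and 6 when each library was left out in turn and was 5 or 6 under the other alternatives, all of them higher in 66cl4. For 4T1.2 against 4T1 it was 0 in every alternative, except 1 without replicate 2 of 4T1. Related genes called ran from 12 to 17 for 66cl4 against 67NR, from 5 to 11 for 4T1.2 against 4T1 and from 25 to 29 for 4T1/4T1.2 against 66cl4/67NR when a library was left out. A replicate block, for which the numbers were not shown to pair the samples, gave 5 and 0 of the 9 genes and 15, 11 and 29 related genes for the same comparisons, and the gene it lost was Six2 (adjusted p = 0.0624). Of 470 refits of single genes named in the text, 439 kept direction and side of the threshold, 30 lost the call and 1 gained it, and the cause was not tested. DESeq2's size factors moved the median of all genes by at most 0.0088 on the log2 scale. With 2 libraries per line, the replicate spread rests on 4 residual degrees of freedom, and genes with a few counts carry wide counting intervals.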
